A study of Saccharomyces cerevisiae with 8 samples.

Results

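The genes described here encode hexose transporters and glucose sensors of the plasma membrane of budding yeast. They were chosen by name and function: the transporters HXT1, HXT2, HXT3, HXT4, HXT5, HXT7, HXT10 and GAL2, and the sensors SNF3 and RGT2. All 10 had 1 probe set each on the Affymetrix GeneChip Yeast Genome 2.0 array, out of 5444 genes measured. The probe set of HXT7 is of the s_at kind, which can also hybridize to a related transcript, and HXT6, a nearly identical neighbour of HXT7, had no named probe set of its own. The HXT7 values may therefore hold both genes.

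The 4 groups compared had 2 arrays each, from separate cultures, and shared the haploid background CEN.PK113-11C. The methods give its markers as MATα, his3Δ1, ura3-52, MAL2-8c and SUC2. The L-UBB+1 strain held a p413 TEF plasmid that expresses the human frameshifted ubiquitin UBB+1 constitutively at a low level, and the control strain held the same plasmid without an insert. Both were grown in synthetic medium with glucose in shake flasks and sampled in the exponential phase (EX) and at day 6 (D6). The paper describes D6 as stationary phase, 6 days after the carbon source of the medium ran out. Values were log2 expression levels, normalized between arrays by the authors, and the array medians lay between 8.34 and 8.41. As RNA was pooled over each culture, a change in some of its cells and a smaller one in all of them cannot be told apart.

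Budding yeast takes up glucose by facilitated diffusion through a family of transporters that differ in affinity. Low-affinity carriers such as Hxt1 and Hxt3 serve cells in plentiful glucose, high-affinity carriers such as Hxt2, Hxt4 and Hxt7 serve cells in scarce glucose, and Hxt5 is known from slow growth and the stationary phase. Snf3 and Rgt2 resemble transporters but act as receptors for low and high glucose. When they bind glucose, the corepressors Mth1 and Std1 are degraded, and the repressor Rgt1 no longer shuts off the HXT promoters.

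The levels on these arrays followed the strain label and hardly the phase label, which touches every result below. Over all genes, arrays of different strains differed by an SD of 1.19 to 1.3 on the log2 scale, while arrays of 1 strain from different phases differed by 0.086 to 0.505 and replicates by 0.202 to 0.287. Of 8 genes known to be high once glucose is gone, 6 were called higher in the L-UBB+1 strain already at EX, where 17.2% of all genes were called higher. Between D6 and EX none was called in either strain by limma, as was the case for 0 of the 5444 genes. At an unadjusted p under 0.05 there were 0 in L-UBB+1 cells and 2 in control cells, with no share of all genes taken at that p. The levels of the 8 genes were also summed on the linear scale, where the brightest genes weigh most. The log2 of this sum was 14.78 to 15.15 on the L-UBB+1 EX arrays and 12.48 to 12.61 on the control EX arrays. At D6 it was 14.78 to 15.23 on the L-UBB+1 arrays and 10.96 to 12.24 on the control arrays. Of 7 genes known to be high in growth on glucose, 5 were called lower in the L-UBB+1 strain at each phase (all genes, 17.1% lower at EX and 18.5% at D6) and none was called between the phases. Whether the labels of the control D6 and L-UBB+1 EX arrays were exchanged was not tested, and the qPCR and reporter assays that the study ran on these strains in the exponential phase were not analysed here. Such an exchange would turn each strain comparison into a phase comparison, so the comparison of L-UBB+1 D6 with control EX, whose arrays it would not touch, is given beside the others. As these groups differ in strain and in phase at once, that comparison cannot tell strain from phase. The methods name the strain as MATα. Of 3 a-cell genes, STE2 and MFA2 were called lower in the L-UBB+1 strain at both phases, and MFA1 was not called (log2 fold changes 0.31 and 0.63). The a-cell receptor gene STE2 read 7.55 to 7.83 in the L-UBB+1 strain and 9.99 to 10.74 in the control strain. The α-cell receptor gene STE3, the only 1 of 3 listed α-cell genes that was measured, read 7.41 to 7.50 and 6.29 to 6.82. On the control arrays, STE2 ranked at percentiles 86.5 to 94.1 of all genes and STE3 at 5.97 to 10.2. That order is the reverse of what the MATα label implies. On the L-UBB+1 arrays they ranked at 26.4 to 33.8 and 22.9 to 24.6. The mating type was not tested. HIS3, the marker of the plasmid in both strains, read 9.80 to 10.92 in the L-UBB+1 strain and 11.20 to 12.15 in the control strain. The UBB+1 transcript itself was not measured here.

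In the L-UBB+1 strain, HXT5, HXT10 and both sensor genes were higher than in the control strain, and HXT1, HXT3 and HXT4 were lower. Calls required limma's adjusted p to be under 0.001 and the log2 fold change to be 1 or more in size. At EX, 4 of the 10 genes were called higher and 3 lower, against a background over all 5444 genes of 17.2% called higher and 17.1% lower (34.3% in all). At D6, the counts were again 4 higher and 3 lower, with 17.9% and 18.5% of all genes called (36.4% in all). The same 7 genes were called at both phases, in the same directions, and also between L-UBB+1 D6 and control EX, where the share of all genes called was 16.7% for higher and 16.6% for lower calls (33.3% in all). The median log2 fold change of the 10 genes was 0.70 at EX and 0.80 at D6, beside 0.00 and -0.01 over all genes, but it lies between genes that moved in opposite directions, from -4.04 to 4.85 at EX. The arrays of the strains did not overlap for 9 of the 10 genes at EX and for all 10 at D6. As the same held for 88.7% and 87.5% of all genes, that count says little about these genes.

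**Figure D1:**
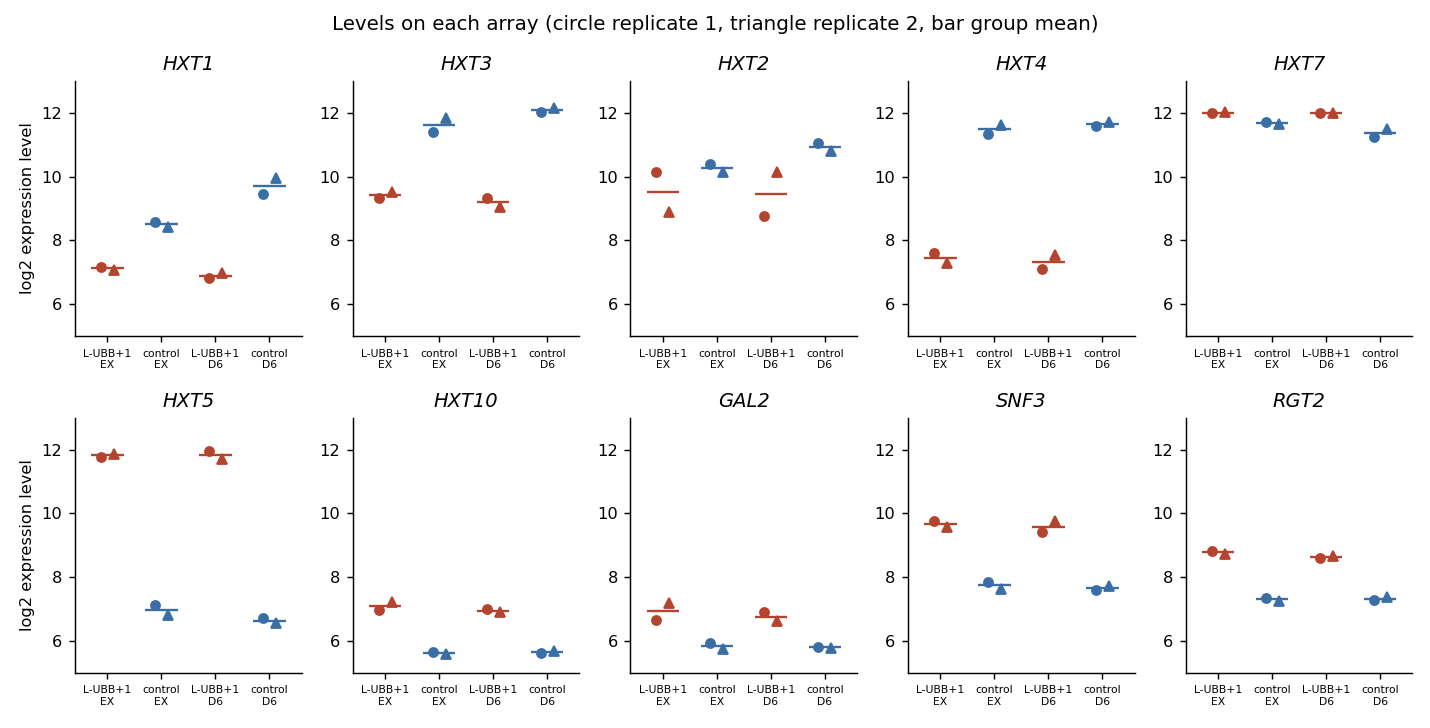
Log2 expression level (vertical axis) of each transporter and sensor gene on the 8 arrays, with L-UBB+1 arrays in red and control arrays in blue; circles are replicate 1, triangles replicate 2 and bars group means. HXT5 stands at 11.70 to 11.96 in the L-UBB+1 strain and 6.55 to 7.12 in the control strain, HXT4 lies the other way round, and HXT2 is split within each L-UBB+1 group.

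HXT1 encodes a low-affinity transporter that is induced by high glucose. It read 7.17 and 7.08 on the L-UBB+1 EX arrays, and 8.59 and 8.41 on the control EX arrays. At D6 it read 6.81 and 6.96 in the L-UBB+1 strain, and 9.45 and 9.96 in the control strain. All L-UBB+1 arrays were thus below all control arrays, and the gap was wider at D6. The log2 fold change was -1.37 at EX (standard error, SE, 0.17, adjusted p = 0.000209 from limma, 2.59-fold lower) and -2.82 at D6 (SE 0.17, adjusted p = 6.49e-06, 7.05-fold lower). The call at EX was lost without any single one of the 4 EX arrays, with adjusted p of 0.00137 to 0.00285 and a log2 fold change of -1.29 to -1.46.

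HXT3 encodes the other low-affinity transporter of glucose-rich growth. It read 9.33 and 9.51 on the L-UBB+1 EX arrays, against 11.39 and 11.83 on the control EX arrays. At D6 the L-UBB+1 arrays read 9.32 and 9.06, and the control arrays 12.02 and 12.16. The smallest gap between the strains within a phase was 1.88, several times the gaps between replicates. HXT3 fell by 2.19 at EX and by 2.90 at D6 on the log2 scale (4.57-fold and 7.45-fold lower, SE 0.17 for each, adjusted p = 1.77e-05 and 5.4e-06 from limma).

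HXT4 encodes a high-affinity transporter that is induced by low glucose and repressed by high glucose. Its levels were 7.60 and 7.28 on the L-UBB+1 EX arrays and 11.35 and 11.61 on the control EX arrays. At D6 they were 7.09 and 7.55 in the L-UBB+1 strain and 11.58 and 11.71 in the control strain. This was the largest fall among the 10 genes at both phases, 16.4-fold at EX (log2 fold change -4.04, SE 0.18, adjusted p = 2.41e-06 from limma) and 20.1-fold at D6 (adjusted p = 1.86e-06). The fall was 17.9-fold between L-UBB+1 D6 and control EX. Among the low-glucose transporters HXT2, HXT4 and HXT7, only HXT4 was called. HXT2 had log2 fold changes in the same direction as HXT4 (-0.75 at EX and -1.47 at D6), and HXT7 in the other (0.32 and 0.63).

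HXT2 encodes another high-affinity transporter of low glucose. It read 10.15 and 8.89 on the L-UBB+1 EX arrays and 10.40 and 10.14 on the control EX arrays, so that the higher L-UBB+1 array lay level with the lower control array. At D6 it read 8.76 and 10.16 in the L-UBB+1 strain and 11.07 and 10.79 in the control strain. Both phases therefore held 1 L-UBB+1 array with a low level and 1 with a level near that of the control EX arrays. HXT2 had a log2 fold change of -0.75 at EX (95% interval -1.95 to 0.46, adjusted p = 0.219 from limma) and of -1.47 at D6 (95% interval -2.67 to -0.26, adjusted p = 0.032), and was not called at either. The intervals reach well past a change of 1 on the log2 scale, so these 2 arrays per group leave its size unsettled.

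The spread of HXT2 within groups was among the widest on the array. Its residual SD was 0.68 on the log2 scale, beside a median of 0.13 over all genes, and 6 of the 5444 genes had a larger one. The replicates differed by 1.27 in the L-UBB+1 EX group and by 1.41 in the L-UBB+1 D6 group. Across the phases, EX replicate 1 and D6 replicate 2 differed by 0.01, and EX replicate 2 and D6 replicate 1 by 0.13. Over all genes, both of these crossed gaps were smaller than both replicate gaps for 2835 genes (52.1%). Among the 10 genes described here, 5 (HXT2, HXT4, HXT7, GAL2 and SNF3) had that order, a share near the background. Leaving out L-UBB+1 arrays EX 1 and D6 2, chosen after the data were seen, left only the low array of each L-UBB+1 group and took the spread from the control groups alone. HXT2 was then called at D6 (log2 fold change -2.17, adjusted p = 0.000339), which that choice of arrays fixed in direction and size. Over the alternatives tried, its log2 fold change at D6 ran from -2.17 to -0.76. Why these arrays lie closer across phases than within them was not tested.

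**Figure D2:**
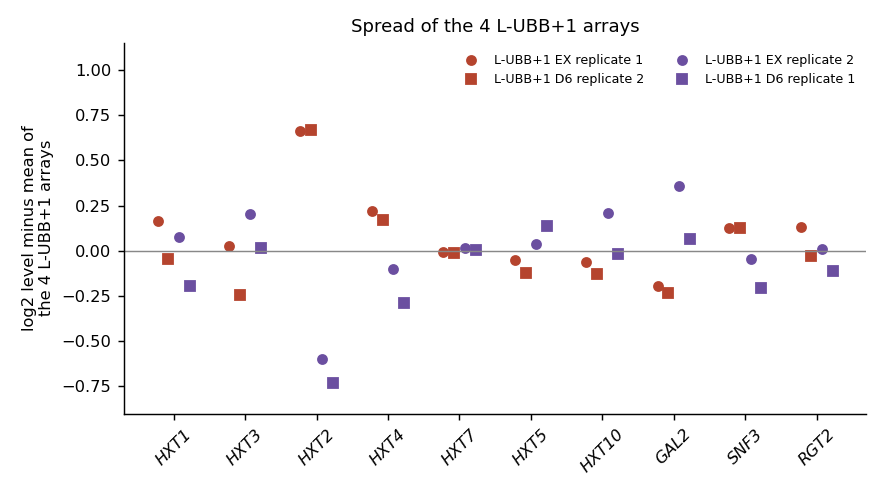
Log2 level on each of the 4 L-UBB+1 arrays minus their mean (vertical axis), by gene. Circles are EX and squares D6; EX replicate 1 and D6 replicate 2 are red, EX replicate 2 and D6 replicate 1 purple. For HXT2 the red points lie together above 0 and the purple points together below 0, with gaps of 0.01 and 0.13 within a colour and of 1.27 and 1.41 between replicates.

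HXT7, read together with HXT6, encodes the high-affinity transporter that takes over at very low glucose. It was bright on every array, at 12 and 12.02 on the L-UBB+1 EX arrays and 11.71 and 11.66 on the control EX arrays. At D6 it read 12.01 and 11.99 in the L-UBB+1 strain and 11.24 and 11.50 in the control strain. The 4 L-UBB+1 values lay within 0.03 of each other and above every control value, but the distance was small. The log2 fold change was 0.32 at EX (95% interval 0.06 to 0.57, adjusted p = 0.0292 from limma) and 0.63 at D6 (95% interval 0.38 to 0.89, adjusted p = 0.00112), and neither met the threshold of size or that of p.

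HXT5 encodes a transporter of moderate affinity that is known to be expressed in slow growth and after glucose is gone. Its levels were 11.77 and 11.86 on the L-UBB+1 EX arrays and 7.12 and 6.82 on the control EX arrays. At D6 they were 11.96 and 11.70 in the L-UBB+1 strain and 6.72 and 6.55 in the control strain. The gap between the strains was at least 4.66 within a phase, beside replicate gaps of 0.09 and 0.27 in the L-UBB+1 strain. HXT5 had the largest change of the 10 genes, 28.9-fold at EX (log2 fold change 4.85, SE 0.14, adjusted p = 8.3e-07 by limma) and 36.6-fold at D6 (5.20 on the log2 scale, SE 0.14, adjusted p = 6.6e-07). The control values ranked at percentiles 7.44 to 14.9 of all genes and no detection calls were used, so the size of these folds depends on a dim control level. Between control D6 and control EX, HXT5 had a log2 fold change of -0.33 (adjusted p = 0.183).

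HXT10 encodes a further hexose carrier of the family. It read 6.96 and 7.23 on the L-UBB+1 EX arrays and 5.64 and 5.57 on the control EX arrays, and at D6 7.0 and 6.89 in the L-UBB+1 strain and 5.63 and 5.67 in the control strain. The control values lay near the lowest value of any probe set, 5.08, and stayed between 5.57 and 5.67. Whether they were above background was not tested, since no detection calls were used, so the fold is a difference on the deposited log2 scale and no measured ratio of transcripts. The same holds for GAL2, whose control values lay between 5.75 and 5.93. HXT10 was higher by 2.8-fold at EX (a log2 fold change of 1.49, SE 0.11, adjusted p = 1.85e-05 from limma) and by 2.45-fold at D6 (adjusted p = 3.48e-05).

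GAL2 encodes the galactose permease, which also carries glucose and is induced by galactose, a sugar that the medium did not contain. It read 6.65 and 7.20 on the L-UBB+1 EX arrays and 5.93 and 5.75 on the control EX arrays. At D6 it read 6.91 and 6.61 in the L-UBB+1 strain and 5.81 and 5.77 in the control strain. Every L-UBB+1 value was above every control value, at a low level and with a replicate gap of 0.55 at EX. The log2 fold change was 1.08 at EX (95% interval 0.64 to 1.53, adjusted p = 0.00131 from limma) and 0.97 at D6 (95% interval 0.52 to 1.41, adjusted p = 0.00226), just short of the threshold at both. GAL2 was called at EX with a prior that follows intensity (adjusted p = 0.000931) and without L-UBB+1 EX replicate 1 (log2 fold change 1.36, adjusted p = 0.000449).

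SNF3 encodes the sensor of low glucose. Its levels were 9.75 and 9.58 on the L-UBB+1 EX arrays and 7.85 and 7.63 on the control EX arrays. At D6 they were 9.42 and 9.75 in the L-UBB+1 strain and 7.59 and 7.72 in the control strain. SNF3 was higher by 3.79-fold at EX and by 3.81-fold at D6 (log2 fold changes 1.92 and 1.93, SE 0.14 for each, adjusted p = 1.57e-05 and 1.48e-05 from limma).

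RGT2 encodes the sensor of high glucose, the paralogue of SNF3. It read 8.83 and 8.71 on the L-UBB+1 EX arrays and 7.34 and 7.26 on the control EX arrays, and at D6 8.59 and 8.67 in the L-UBB+1 strain and 7.29 and 7.36 in the control strain. Of the 10 genes it had the smallest spread within groups, a residual SD of 0.06. RGT2 was higher by 2.77-fold at EX (a log2 fold change of 1.47, SE 0.09, adjusted p = 8.08e-06 from limma) and by 2.47-fold at D6 (adjusted p = 1.26e-05). Both sensor genes thus rose, the low-glucose and the high-glucose one alike, while the transporters moved in both directions.

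**Figure D3:**
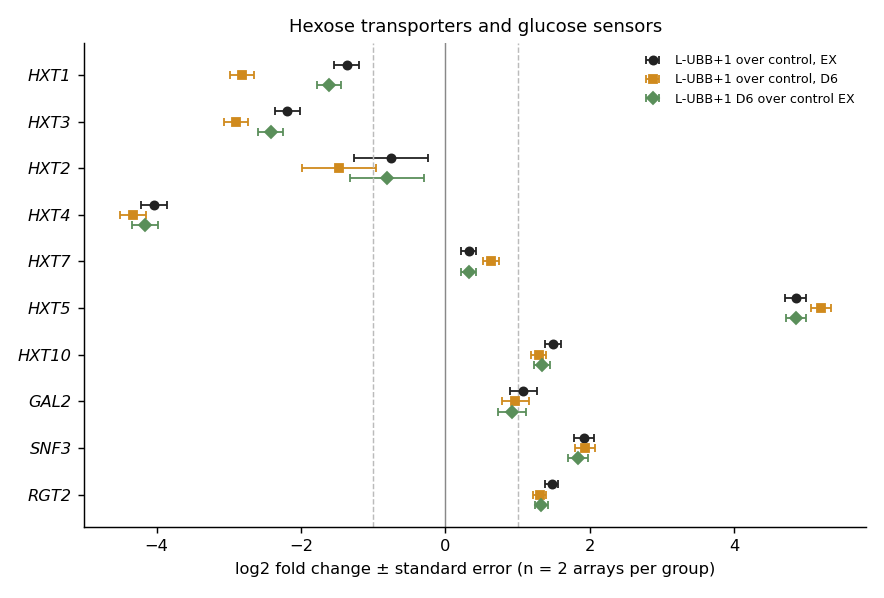
Log2 fold change with its SE (horizontal axis) of the 10 genes for L-UBB+1 over control at EX (circles) and at D6 (squares) and for L-UBB+1 D6 over control EX (diamonds); dashed lines mark a change of 1 in size. HXT4 at -4.04 and -4.33 and HXT5 at 4.85 and 5.20 stand at the ends, and the 3 comparisons share arrays.

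Between the phases of 1 strain no gene of the group was called, as was the case for 0 of the 5444 genes. Between control D6 and control EX, 4 of the 10 genes had an unadjusted p under 0.05 by limma, and no share of all genes was taken at that p. Of the 10, only HXT1 had an adjusted p under 0.05. With a log2 fold change of at least 1 as well, which HXT1 had, 53 of the 5444 genes met that p. HXT1 averaged 9.71 at D6 and 8.50 at EX in the control strain (log2 fold change 1.21, SE 0.17, adjusted p = 0.0389 from limma), short of the p required for a call. In the L-UBB+1 strain, none of the 10 had an unadjusted p under 0.05 and the log2 differences lay between -0.24 for HXT1 and 0.01 for HXT5. The strain effect of HXT1 differed between the phases by -1.44 on the log2 scale (SE 0.24), and that of HXT3 by -0.70. These interactions had unadjusted p of 0.000487 and 0.0198 and the same adjusted p of 0.275, so neither passed the test of the difference. The order of the group means for HXT1, from low to high, was L-UBB+1 D6, L-UBB+1 EX, control EX and control D6. Its neighbours within a strain did not differ past the threshold, and those on either side of the strain boundary did. The same split held for the 6 other called genes, with both L-UBB+1 means on 1 side of both control means and no call between phases. This order largely follows from their calls in the same direction in each comparison across strains. It also follows from the 0 calls between phases over all genes, so it is no further result about these genes.

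Members of the family that lie close together on a chromosome moved in the same direction in some cases and in opposite directions in others. In the RefSeq annotation of yeast assembly R64, HXT4, HXT1 and HXT5 follow each other on chromosome VIII, with 1 gene between HXT4 and HXT1 and 0 between HXT1 and HXT5. HXT4 and HXT1 were both called lower, with log2 fold changes of -4.04 and -1.37 at EX, while HXT5, next to HXT1, was called higher with one of 4.85. On chromosome IV, HXT7 and HXT3 are separated by 2 genes, one of them HXT6. There HXT3 fell by 2.19 at EX, while HXT7 with HXT6 had a log2 fold change of 0.32 and was not called.

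For each of the 10 genes, the gene with the most similar pattern over the 8 arrays was found by Pearson's correlation, as a description. HXT1 was most like MRX11 (r = 0.99), HXT3 like TDA6 (r = 0.9984), HXT7 like CMC4 (r = 0.9974), HXT10 like SPS4 (r = 0.9992) and GAL2 like DDI3 (r = 0.9984). HXT4 was most like ERG4, an enzyme of ergosterol synthesis (r = 0.9997), and HXT5 most like ASI3, a ubiquitin ligase subunit of the inner nuclear membrane (r = 0.9997). For SNF3 and RGT2 these were YML020W (r = 0.9991) and ADR1, the activator of ethanol and glycerol use (r = 0.9990). HXT2 was most like CAN1, the arginine permease (r = 0.98), which read 9.38 and 8.92 on the L-UBB+1 EX arrays and 8.82 and 9.37 on the L-UBB+1 D6 arrays. As the arrays form 2 clusters by strain, the r of the called genes describes mainly that split.

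The sensors act through a short pathway, and 4 of its 10 further genes were called at each phase, a share near that of all genes (34.3% at EX and 36.4% at D6). The count was 3 higher and 1 lower both times, and the median log2 fold changes were 0.30 and 0.21. MTH1, one of the corepressors of Rgt1, was higher by 5.13-fold at EX and 4.64-fold at D6, and RGT1, the repressor of HXT genes, by 5.06-fold and 4.74-fold. STD1, the paralogue of MTH1, moved the other way and fell by 1.43 and 1.42 on the log2 scale. SKP1, a subunit of the SCF ligase that marks Mth1 and Std1 for degradation, rose 2.43-fold and 3.06-fold, while GRR1, the F-box protein of that ligase, had a log2 fold change of 0.73 at each phase and CDC53, its scaffold, of -0.53 and -0.19, and neither was called. The casein kinases YCK1 and YCK2 and the corepressor genes CYC8 and TUP1 were not called. For MTH1, RGT1 and STD1, limma gave adjusted p of 8.35e-06 or less at both phases, with SEs of 0.09 to 0.10 (n = 2 arrays per group).

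Glucose repression and hexose phosphorylation had 1 of 11 genes called higher and 6 lower at EX, and 1 higher and 2 lower at D6, with medians of -1.14 and -0.59. The shares over all genes were 17.2% for higher and 17.1% for lower calls at EX and 17.9% and 18.5% at D6, so that the D6 counts lay near the background. HXK2, the main hexokinase of growth on glucose and a partner of the repressor Mig1, was 4.79-fold lower at EX and 4.41-fold lower at D6. REG1, which directs the Glc7 phosphatase to the Snf1 kinase, was 3.69-fold and 3.51-fold higher. HXK1 read 9.11 and 9.47 on the L-UBB+1 EX arrays and 11.77 and 11.70 on the control EX arrays, and at D6 9.39 and 9.12 in the L-UBB+1 strain and 9.81 and 10.76 in the control strain. The control level of this second hexokinase was lower at D6 than at EX, while the L-UBB+1 levels overlapped (control D6 over EX, adjusted p = 0.0461 from limma). HXK1, the glucokinase gene GLK1 and its paralogue EMI2 were called lower at EX (log2 fold changes -2.45, -2.01 and -1.57) and not at D6 (-1.03, -0.98 and -0.59). The difference of their strain effects between the phases did not pass limma's test (adjusted p = 0.275 for each). MIG2, a repressor induced by glucose, fell by 1.32 at EX and by 1.77 at D6. Its L-UBB+1 values, 5.76 to 5.87, ranked at percentiles 2.13 to 2.72 of all genes, so these falls are differences on the deposited log2 scale. The control EX arrays read 6.77 and 7.50. MIG1 had log2 fold changes of 1.47 and 1.16 without a call (adjusted p = 0.00139 and 0.00452 from limma).

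**Figure D4:**
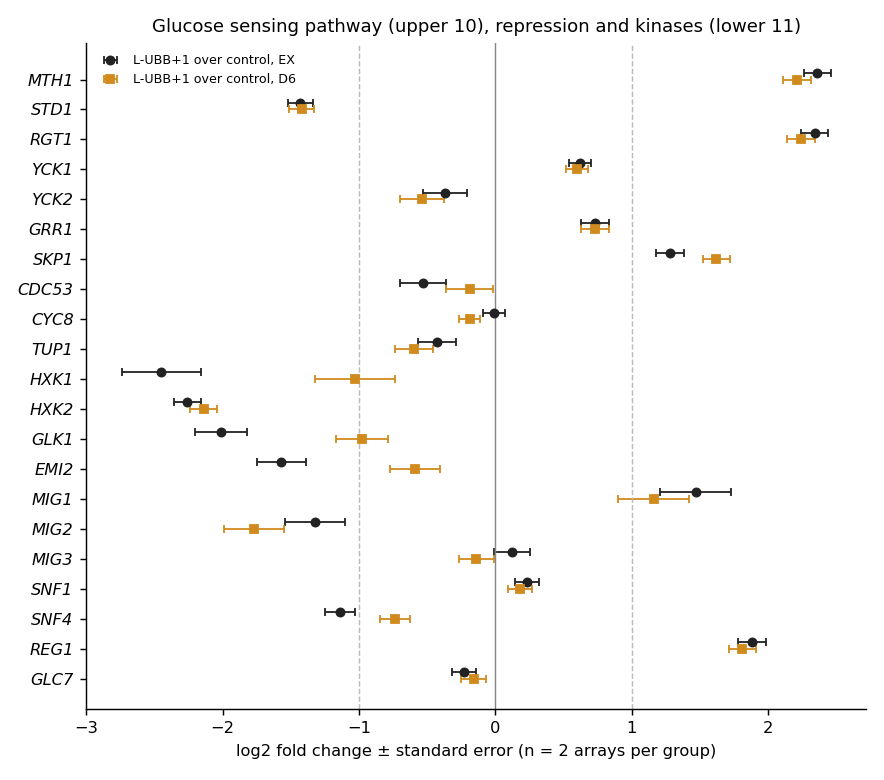
Log2 fold change of L-UBB+1 over control with its SE (horizontal axis) at EX (circles) and D6 (squares) for 10 genes of the sensing pathway and 11 of glucose repression and hexose phosphorylation; dashed lines mark a change of 1 in size. MTH1 and RGT1 stand above 2 and STD1 near -1.4 at both phases, while HXK1, GLK1 and EMI2 lie further from 0 at EX than at D6.

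Other carriers of the sugar porter family were called higher or not called in the strain comparisons. Of 20 such genes, 15 were measured, with 7 higher calls at EX, 8 at D6 and no lower call, and with medians of 0.96 and 1.12. Over all genes, the shares called higher were 17.2% and 17.9%, and those called lower 17.1% and 18.5%. STL1, the glycerol and proton symporter, was higher by 5.96-fold and 7.33-fold, and the maltose permease gene MAL31 by 4.76-fold at each phase. The control values of STL1, 5.86 to 6.11, ranked at percentiles 3.21 to 4.5 of all genes. Its folds are therefore differences on the deposited log2 scale. HXT15 rose 5.74-fold and 4.82-fold, but its probe set is of the s_at kind and can read its close relatives, and its control values of 5.30 to 5.35 lay near the lowest on the array, so that these folds too are differences on the deposited scale. HXT11 read 6.99 and 7.40 on the L-UBB+1 EX arrays and 6.07 and 5.74 on the control EX arrays, and was called at both phases. At D6 it read 7.66 and 7.23 in the L-UBB+1 strain and 5.30 and 5.35 in the control strain, so the size of its change has the same limit. HXT9 was called at D6 (log2 fold change 1.46) and not at EX (0.81, adjusted p = 0.00394 from limma), and HXT14 at EX (1.05) and not at D6 (0.93). HXT8, HXT13 and HXT17 had log2 fold changes of 0.26 to 0.84 without a call. The control values of HXT14 (5.53 to 5.62), HXT8 (5.65 to 5.70) and HXT13 (5.80 to 5.85) also lay near the lowest on the array. HXT17 was read by an s_at probe set. VPS73 was the only one of the 15 called lower in any of the 6 comparisons, between L-UBB+1 D6 and control EX (log2 fold change -2.0, adjusted p = 0.00068). Its log2 fold changes were -1.80 at EX and -1.14 at D6, short of the p required for a call (adjusted p = 0.00118 and 0.0109 from limma).

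**Figure D5:**
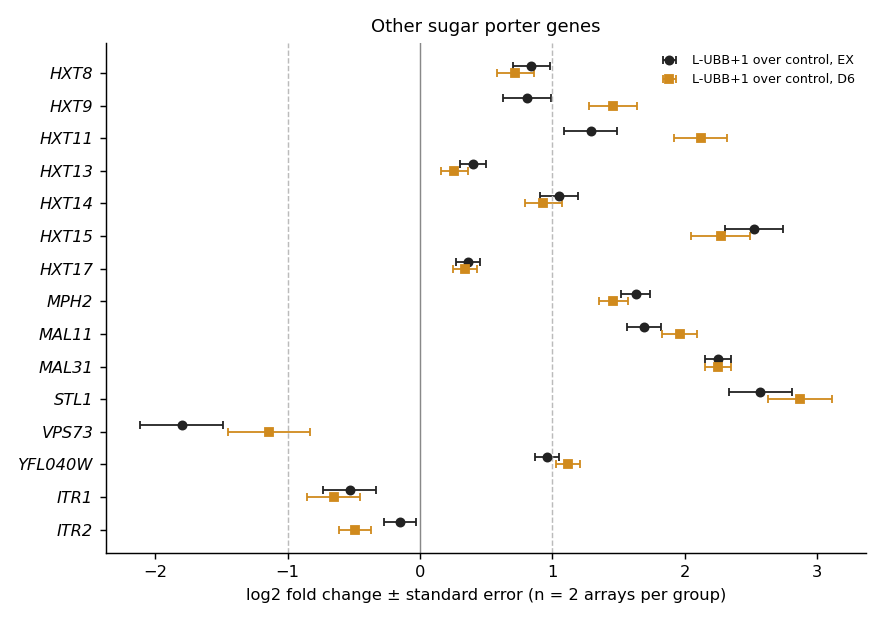
Log2 fold change of L-UBB+1 over control with its SE (horizontal axis) at EX (circles) and D6 (squares) for 15 other genes of the sugar porter family; dashed lines mark a change of 1 in size. STL1, HXT15 and MAL31 lie above 2 at both phases, and VPS73, ITR1 and ITR2 lie below 0 without a call.

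The galactose genes beside GAL2 were not called. Of 7 listed, 6 were measured, and 0 were called by limma at either phase, where 34.3% (EX) and 36.4% (D6) of all genes were called. At an unadjusted p under 0.05 there were 3 at EX and 4 at D6, with no share of all genes taken at that p. GAL1, the galactokinase, met the threshold of p but not that of size (log2 fold changes 0.82 and 0.78, adjusted p = 0.000104 and 0.000125), and PGM2 met that of size at EX but not that of p (log2 fold change -1.08, adjusted p = 0.00208). GAL7 and GAL10 lay within 0.22 of 0 in both comparisons. Of 11 genes for the turnover of transporters, 2 were called higher and 0 lower at each phase. Of all genes, 17.2% at EX and 17.9% at D6 were called higher, and 17.1% and 18.5% lower. The higher calls were thus near the background. They were CSR2 and ALY2, arrestin-related adaptors of the Rsp5 ubiquitin ligase that removes permeases from the membrane. CSR2 was higher by 4.51-fold at EX and 5.41-fold at D6, and ALY2 by 2.23-fold and 2.08-fold, while DOA4, a deubiquitinase, had 1.22 and 1.42 on the log2 scale, END3, an endocytosis gene, -0.66 and -0.40, and neither was called. RSP5 itself had a log2 fold change of -0.23 at each phase (adjusted p = 0.0883 and 0.0826 from limma).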

How the data were processed

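The authors produced the log2 expression levels per probe set with the PIANO package for R, normalized between arrays before deposition, and the submitters' processing notes name R 3.2.3. For background correction, normalization and summarization, the sources used here do not give the method. Of 5705 probe sets on the 8 arrays, 5489 had 1 gene in the platform annotation and 0 had several, and the 216 with none named were left out. Gene IDs updated 12 symbols. Where a gene had several probe sets (43 genes), the brightest by its mean over the arrays represented it, which left 5444 genes.

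The deposited log2 values entered, unchanged, a model of the 4 group means by limma (version 3.58.1, R version 4.3.3), with 4 residual and 3.26 prior degrees of freedom, Benjamini-Hochberg adjustment over the 5444 genes and 95% intervals from the moderated SEs. The number of arrays, 2 per group, limits the precision. The steps were run on simulated data with independent noise and a small share of genes raised in the L-UBB+1 EX group. On the real arrays 34.3% of all genes were called at EX, in both directions, so that run does not measure the error rates here. By rule, the text names the 10 genes, the gene most like each of them and the 4 largest changes at EX of longer lists, and may name any gene of lists of up to 10. HXT8, HXT9, HXT11, HXT13, HXT14, HXT17, ITR1, ITR2, EMI2, MIG1, MIG2 and RSP5 were added once their values had been seen. The genes and lists were chosen with earlier results of these data known. Alternatives changed the normalization, the probe sets, the filter on dim genes, the arrays and prior of the fit, a replicate block and the thresholds, used the t-test that the methods name for differences between strains in general, or omitted arrays.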

Additional observations from a re-analysis of the deposited data

Results flagged for a closer look

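PGM2, the phosphoglucomutase that follows the galactose enzymes, drew attention because its strain difference ran in opposite directions at the phases. It read 9.22 and 9.40 on the L-UBB+1 EX arrays and 10.61 and 10.17 on the control EX arrays, and at D6 9.24 and 9.19 in the L-UBB+1 strain and 8.17 and 8.70 in the control strain. The strain effects differed by 1.86 on the log2 scale (standard error 0.29, unadjusted p = 0.000322, adjusted p = 0.275 from limma), so the difference did not pass the test. None of the 10 transporter and sensor genes showed such a reversal.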

How the results depend on the processing

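The 10 genes kept their direction in all 474 checks of the strain comparisons. Checks that changed only the threshold, prior, test, replicate block or filter left the log2 fold change as it was. Their direction was thus fixed in advance, and only another normalization or omitted arrays of the groups compared could reverse it. In 456 checks the side of the threshold was kept. In 6 a call was lost, all of them for HXT1 at EX, and in 12 a call was gained. The number called at EX was 7, and 6 to 8 over the alternatives; at D6 it was 7, and 6 to 9. Without 1 array at a time, where the lone array left in a group was assumed to vary like the others, it was 6 to 7 at EX and 7 at D6. With a replicate block, the counts stayed at 7 and 7; same-numbered replicates of different groups deviated with correlations of -0.855 to 0.364 across genes, so the numbers do not pair the arrays. With the crossed pairing, chosen after the data were seen, the counts were 8 and 7. Between control D6 and control EX, the count of 0 became 1 at an adjusted p under 0.05 with the same fold (53 of all genes) and 1 by the methods' t-test, which they name for strain differences in general and not for the arrays, at p under 0.05 with no adjustment or minimum fold (631 of all genes). This setting, which is looser in p and fold as well as another test, gave over all genes 3493 at EX (2954 at an adjusted p under 0.05) against 1867 by limma, 3293 at D6 against 1979, 3312 between L-UBB+1 D6 and control EX against 1813, and 120 between the L-UBB+1 phases against 0. HXT7 has no value without s_at probe sets, and HXT10 and GAL2 have none once dim genes are left out. No setting called an interaction.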
